A study of Mus musculus with 10 samples.

Results

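The genes of the bone morphogenetic protein (BMP) and transforming growth factor beta (TGF-β) pathway were compared between epithelial tips of the mouse lung at E11.5 and at E17.5, in days of embryonic development. Members were taken by gene symbol, as all BMP, GDF, TGF-β and activin subunit ligands, their receptors, Smads, Smurfs, latent TGF-β binding proteins, and the antagonists noggin, chordin, gremlin and follistatin with its relatives, and 58 of the 17813 genes measured met this rule. RNA was measured on 10 Affymetrix mouse microarrays, 5 per stage, and the labels give the genotype *Id2-CreER; Rosa26R-fGFP* for both stages. The E11.5 tips were cut out by hand after dispase treatment, with no tamoxifen named for them. The E17.5 cells were dissociated with trypsin/EDTA and sorted for GFP, from embryos whose mothers had received 150 μg tamoxifen per gram body weight at E16.5, so that *Id2*-expressing cells and their progeny carry the label. The sorted cells held a small number of the tips' immediate progeny, and stage, tamoxifen and way of isolation cannot be told apart. Arrays within a stage are labelled as biological replicates. Whether these stem from separate litters is not stated, so p-values measure the spread between these samples.

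Ligands of this family are secreted dimers that bring together type I and type II receptor kinases. BMP receptors phosphorylate Smad1, Smad5 and Smad9, and TGF-β and activin receptors phosphorylate Smad2 and Smad3. These receptor-activated Smads enter the nucleus with the common partner Smad4, while Smad6 and Smad7 and the ubiquitin ligases Smurf1 and Smurf2 hold the pathway back. In the embryonic lung, *Bmp4* is known from the distal tip epithelium, and TGF-β is known to restrain branching and to build up matrix.

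Values are log2 signals per probe set, as deposited, and a change of 1 is 2-fold. A gene was called when the limma comparison of stages gave an adjusted p under 0.05. Signals of different genes come from different probe sets and are not compared with each other, and the table holds no calls of presence or absence, so a low signal cannot be read as absence. Each member rests on 1 probe set except *Acvr2b*, which has a pair.

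Members of the pathway moved in opposite directions within most of its layers. In all, 47 of the 58 members were called, which is 81%, against 68.4% of all genes. The higher members at E17.5 numbered 31 and the lower ones 16, against 36.9% and 31.5% of all genes. Called changes of at least 2-fold were found for 31 members (53.4%, against 40.5% of all genes), 17 of them higher and 14 lower (against 24.2% and 16.3%). Of these, 18 members reached 4-fold (31%, against 19.8%) and 6 reached 16-fold (10.3%, against 3.52%), namely *Ltbp3*, *Acvrl1*, *Tgfb1* and *Inhbb* as higher and *Tgfbr1* and *Smad1* as lower. The median log2 difference of the members was 0.42, against 0.03 over all genes, and the median size of the difference without its sign was 1.13, against 0.71. For 40 members (69%, against 58.6% of all genes) the arrays of the stages did not overlap, 26 as higher and 14 as lower (against 32.3% and 26.3%). After quantile normalization, 27 members were higher and 19 lower, and those at least 2-fold higher or lower numbered 14 each. After median centring, 15 were at least 2-fold higher and 14 lower.

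**Figure D1:**
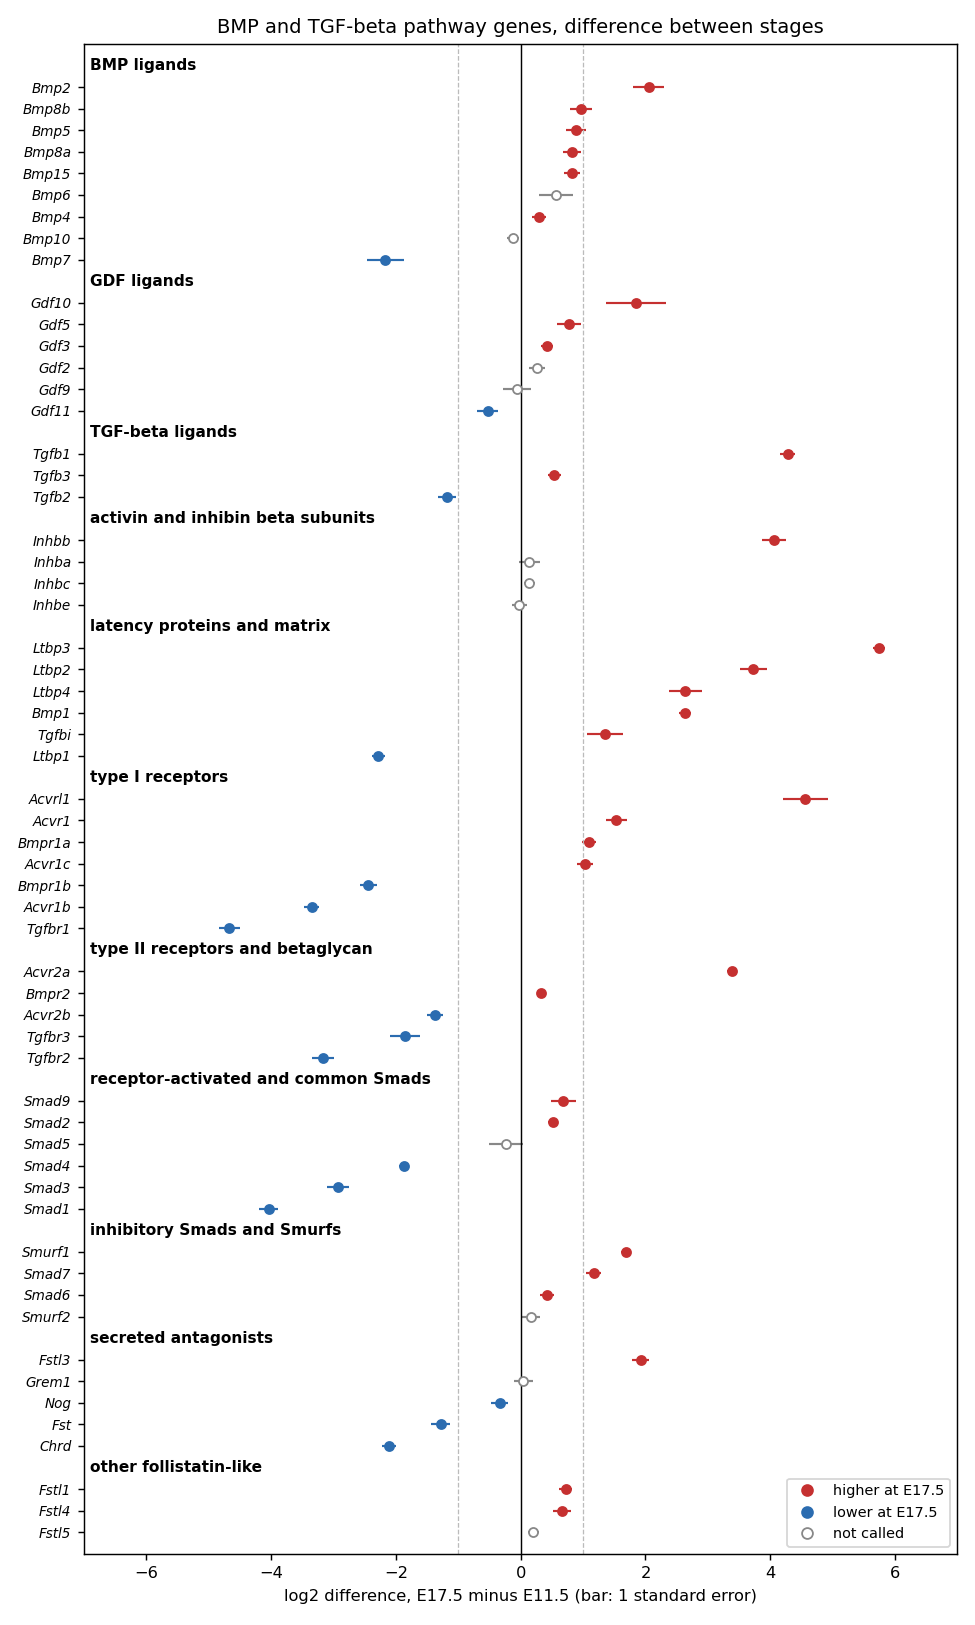
Log2 difference between the stages (x axis, E17.5 minus E11.5) for each of the 58 members, grouped by role, with a bar of 1 standard error. Red points are called higher, blue points called lower and open grey points not called, and dashed lines mark 2-fold. *Ltbp3* lies farthest to the right at 5.74 and *Tgfbr1* farthest to the left at -4.67.

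The samples were checked against marker lists, many of which moved between the stages. Of 19 pan-epithelial genes, 12 were higher and 4 lower at E17.5 (9 and 6 after quantile normalization), and the list mean ran from 11.20 to 11.42 (E11.5) and from 12.03 to 12.23 (E17.5). Of 12 distal tip markers, 3 were higher and 6 lower, and the tip factors *Sox9* and *Nkx2-1* were not called, with log2 differences of -0.02 and 0.10. The lower ones included *Shh* (-3.47), *Spry2* (-2.79), *Etv4* (-1.87) and *Etv5* (-1.35), and the higher ones were *Sftpc* (2.54), *Mycn* (1.48) and *Dusp6* (1.11). All 9 genes of the alveolar type 2 list and all 8 of the alveolar type 1 list were higher, but *Lpcat1*, also known from alveolar type 2 cells and placed in the distal tip list, was 26.6-fold lower on its 1 probe set. The *Lpcat1* signals at E17.5 (3.06 to 3.32) were near the lowest signal of all probe sets (2.47). The authors detected LPCAT1 protein robustly in tips from E16.5 and at very low levels at E15.5, where their time course of wild-type lungs began. The fall in RNA signal from E11.5 to E17.5 thus runs opposite to the later rise of the protein, and E11.5 had no staining to compare. Of 20 endothelial markers, 17 were higher and 1 lower, with list means of 5.61 to 6.46 before and 8.40 to 10.16 after. For macrophages and monocytes, 20 of 24 markers were higher and 1 lower, with list means of 5.43 to 6.18 and 8.48 to 9.27. Mesenchymal markers went both ways, with 10 of 24 higher, 8 lower and list means of 6.76 to 7.99 and 7.81 to 8.82. Smooth muscle and pericyte markers had 4 of 9 higher and 4 lower, mesothelial markers 2 of 5 higher and 1 lower, and erythroid markers 1 of 8 higher and 5 lower. Among 20 immediate early genes, known to respond to cell dissociation, 19 were higher and 1 lower, with list means of 7.69 to 7.81 and 11.42 to 11.71. In such bulk samples more cells of a type and more RNA per cell cannot be told apart, and the part of these lists in the results below was not tested.

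Among the 9 BMP ligands measured, 6 were called higher, *Bmp7* was lower, and *Bmp6* and *Bmp10* were not called (4 higher and 2 lower after quantile normalization). *Bmp2*, a close relative of *Bmp4*, had log2 signals of 7.53, 6.83, 6.53, 6.30 and 6.64 on E11.5 replicates 1 to 5 and 8.79, 9.09, 9.40, 8.36 and 8.46 on E17.5 replicates 1 to 5. It rose 4.15-fold (log2 difference 2.05, standard error 0.25, adjusted p = 1e-05), and every E17.5 array lay above every E11.5 array. *Bmp7*, which belongs to another branch of the family with *Bmp5* and *Bmp6*, read 8.77, 8.94, 8.66, 8.69 and 8.72 at E11.5 and 5.94, 5.87, 6.86, 7.73 and 6.52 at E17.5. Its log2 difference was -2.17, with a standard error of 0.30 (adjusted p = 3.1e-05). The E11.5 arrays were close together and the E17.5 arrays were spread out, with replicate 4 highest and still below all E11.5 arrays.

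*Bmp4*, the ligand of the distal tip, changed little, with signals of 11.34, 11.16, 11.08, 10.92 and 10.99 at E11.5 and 11.22, 11.29, 11.32, 11.65 and 11.48 at E17.5. The arrays of the stages overlapped, and the log2 difference of 0.29 (standard error 0.11, adjusted p = 0.032) turned to -0.28 after quantile normalization (adjusted p = 0.043). The call was lost after median centring (0.16) and without E11.5 replicate 3 (0.29), 4 (0.25) or 5 (0.27) or E17.5 replicate 4 (0.23) or 5 (0.27), so *Bmp4* has no settled direction here. Rises smaller than that of *Bmp2* were found for other BMP ligands. *Bmp5* had signals of 8.90, 9.01, 8.95, 9.24 and 9.11 and then 10.37, 10.15, 9.47, 9.61 and 10.05, a rise of 0.89 on the log2 scale (adjusted p = 0.0004) that was 0.33 and not called after quantile normalization (adjusted p = 0.091). *Bmp8b* read 6.58, 6.61, 6.33, 6.60 and 6.64 at E11.5 and 7.68, 7.04, 7.45, 8.20 and 7.25 at E17.5, a log2 difference of 0.97 (adjusted p = 0.00047). *Bmp8a* read 5.22, 4.63, 4.91, 4.70 and 4.57 and then 5.72, 5.43, 5.63, 5.93 and 5.43, a log2 difference of 0.82 (adjusted p = 0.00024). The arrays of the stages did not overlap for these genes. *Bmp15*, known from the oocyte, read 4.60, 4.34, 4.47, 4.44 and 4.31 at E11.5 and 5.73, 5.21, 5.01, 5.18 and 5.11 at E17.5, again apart, with a log2 difference of 0.82 (adjusted p = 0.00013). *Bmp6* was at 5.35 to 6.69 and 6.01 to 7.31, which was not called (log2 difference 0.57, adjusted p = 0.084). It passed with array weights (0.73, adjusted p = 0.023), without E11.5 replicate 1 (0.73, adjusted p = 0.03) and without E17.5 replicate 4 (0.72, adjusted p = 0.031). *Bmp10*, a ligand known from the heart, had a log2 difference of -0.12 (adjusted p = 0.31).

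Growth and differentiation factors (GDFs) are further ligands of the same receptors, and 3 of 6 were higher and 1 lower. *Gdf10*, a relative of *Bmp3*, had signals of 6.81, 4.59, 5.15, 5.18 and 4.38 at E11.5 and 5.63, 7.59, 7.30, 7.20 and 7.63 at E17.5. It rose 3.6-fold (log2 difference 1.85, standard error 0.48, adjusted p = 0.0042), but E11.5 replicate 1 lay above E17.5 replicate 1, so the stages overlapped. The mesenchymal list was highest among E11.5 arrays on the same replicate 1 (7.99) and lowest among E17.5 arrays on replicate 1 (7.81), and its part in the *Gdf10* result was not tested. *Gdf5*, known from developing joints, read 5.18, 4.76, 4.94, 5.23 and 4.58 and then 6.32, 5.36, 5.87, 5.44 and 5.53, a log2 difference of 0.77 (adjusted p = 0.0035), with no overlap. *Gdf3*, known from the early embryo, read 3.94, 4.13, 4.21, 4.06 and 3.79 at E11.5 and 4.54, 4.49, 4.27, 4.57 and 4.37 at E17.5, a log2 difference of 0.42 (adjusted p = 0.0026), also with no overlap. *Gdf11*, which patterns the body axis, read 4.57, 5.22, 5.26, 4.74 and 4.89 and then 4.57, 4.25, 3.94, 4.57 and 4.69, and fell by 0.53 (adjusted p = 0.017) with overlapping arrays. *Gdf2*, a circulating ligand of the endothelial receptor ACVRL1, read 5.01, 4.60, 4.84, 5.12 and 4.89 at E11.5 and 5.42, 5.10, 5.21, 4.78 and 5.27 at E17.5. This was not called (log2 difference 0.26, adjusted p = 0.099) except without E17.5 replicate 4 (0.36, adjusted p = 0.018). *Gdf9*, another oocyte ligand, had a log2 difference of -0.06 (adjusted p = 0.81).

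The 3 TGF-β ligands diverged, with 2 called higher and 1 lower (1 and 1 after quantile normalization). *Tgfb1* had log2 signals of 4.91, 4.30, 4.57, 4.67 and 4.53 on E11.5 replicates 1 to 5 and 8.91, 8.87, 8.81, 8.73 and 9.07 on E17.5 replicates 1 to 5, a rise of 19.4-fold (log2 difference 4.28, standard error 0.12, adjusted p = 1.3e-11). *Tgfb2* went the other way, from 12.21, 12.47, 12.35, 12.46 and 12.46 to 11.49, 11.04, 10.72, 11.29 and 11.52, with a log2 difference of -1.18 and a standard error of 0.15 (adjusted p = 1.5e-05). The E17.5 arrays were all above the E11.5 arrays for *Tgfb1* and all below them for *Tgfb2*. *Tgfb3* read 10.18, 9.87, 9.69, 10.10 and 9.75 and then 10.57, 10.26, 10.58, 10.44 and 10.41. Its log2 difference of 0.54 (adjusted p = 0.0012) was -0.06 after quantile normalization (adjusted p = 0.64). *Tgfb1* is also made by leukocytes, whose marker *Ptprc* rose 24.3-fold. On the E17.5 arrays the macrophage and monocyte list was at 9.19, 9.21, 9.27, 8.48 and 8.65 on replicates 1 to 5, and *Tgfb1* stayed within 8.73 to 9.07. The part of leukocyte RNA in the *Tgfb1* rise was not tested.

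The activin and inhibin β subunits differed among themselves. *Inhbb*, the subunit of activin B, had signals of 4.91, 4.41, 4.75, 5.05 and 4.91 at E11.5 and 9.0, 9.11, 9.21, 8.18 and 8.82 at E17.5, a rise of 16.7-fold (log2 difference 4.06, standard error 0.19, adjusted p = 1.5e-09). The lowest E17.5 array was 3 or more above the highest E11.5 array on the log2 scale. The other subunits were not called and their arrays overlapped between stages. *Inhba*, the subunit of activin A, read 5.34, 4.37, 5.02, 5.02 and 4.74 and then 5.20, 4.80, 5.23, 5.16 and 4.80 (log2 difference 0.14, adjusted p = 0.5). *Inhbc* read 3.44, 3.64, 3.57, 3.37 and 3.72 at E11.5 and 3.61, 3.64, 3.87, 3.61 and 3.71 at E17.5 (log2 difference 0.14, adjusted p = 0.21, and 0.23 with adjusted p = 0.047 after quantile normalization). *Inhbe*, which like *Inhbc* is known from the liver, read 3.95, 3.88, 3.75, 3.57 and 3.70 and then 3.85, 3.40, 3.80, 3.73 and 3.98 (log2 difference -0.02, adjusted p = 0.91).

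Genes for holding and freeing TGF-β in the matrix showed the largest rise of any member. Latent TGF-β binding proteins (LTBPs) tie the inactive ligand to matrix fibres, although LTBP2 does not bind it. *Ltbp3* had signals of 6.25, 5.96, 5.79, 6.03 and 5.86 at E11.5 and 11.84, 11.56, 11.76, 11.73 and 11.67 at E17.5, a rise of 53.3-fold (log2 difference 5.74, standard error 0.10, adjusted p = 6.3e-13). *Ltbp2* read 6.56, 6.23, 5.69, 6.06 and 5.45 and then 9.19, 9.83, 9.89, 10.12 and 9.64, a rise of 13.3-fold (standard error 0.22 on the log2 scale, adjusted p = 1.3e-08). *Ltbp4* read 7.27, 5.68, 6.19, 6.62 and 6.16 at E11.5 and 8.95, 9.20, 8.69, 8.86 and 9.41 at E17.5, a rise of 6.22-fold (adjusted p = 1.4e-06). *Ltbp1* alone among the 4 fell, from 8.17, 8.12, 8.22, 8.12 and 8.18 to 5.89, 6.14, 5.75, 5.53 and 6.08, with a log2 difference of -2.28 and a standard error of 0.11 (adjusted p = 2.9e-09). *Bmp1*, which in spite of its name is a metalloprotease that trims procollagens and chordin, read 8.69, 8.83, 8.87, 8.76 and 8.68 at E11.5 and 11.26, 11.28, 11.56, 11.60 and 11.28 at E17.5. It rose 6.19-fold (log2 difference 2.63, adjusted p = 1.5e-10). *Tgfbi*, a matrix protein gene that TGF-β induces, was at 9.90 to 11.43 and then at 11.73 to 12.29, a rise of 2.56-fold (adjusted p = 0.0013). Its log2 difference of 1.35 was as low as 0.80 when the processing was varied. For none of these 6 genes did the stages overlap, against 58.6% of all genes without overlap. At E11.5, *Ltbp4* and *Tgfbi* were highest on replicates 1 (7.27 and 11.43) and 4 (6.62 and 11.26). The mesenchymal list (7.99 and 7.79), the smooth muscle and pericyte list (8.51 and 8.56) and the mesothelial list (7.43 and 6.52) were also highest there. At E17.5 the mesenchymal list and *Tgfbi* were lowest on replicate 1 (7.81 and 11.73), and *Ltbp4* was lowest on replicate 3 (8.69). The part of RNA from these cell types in these values was not tested.

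**Figure D2:**
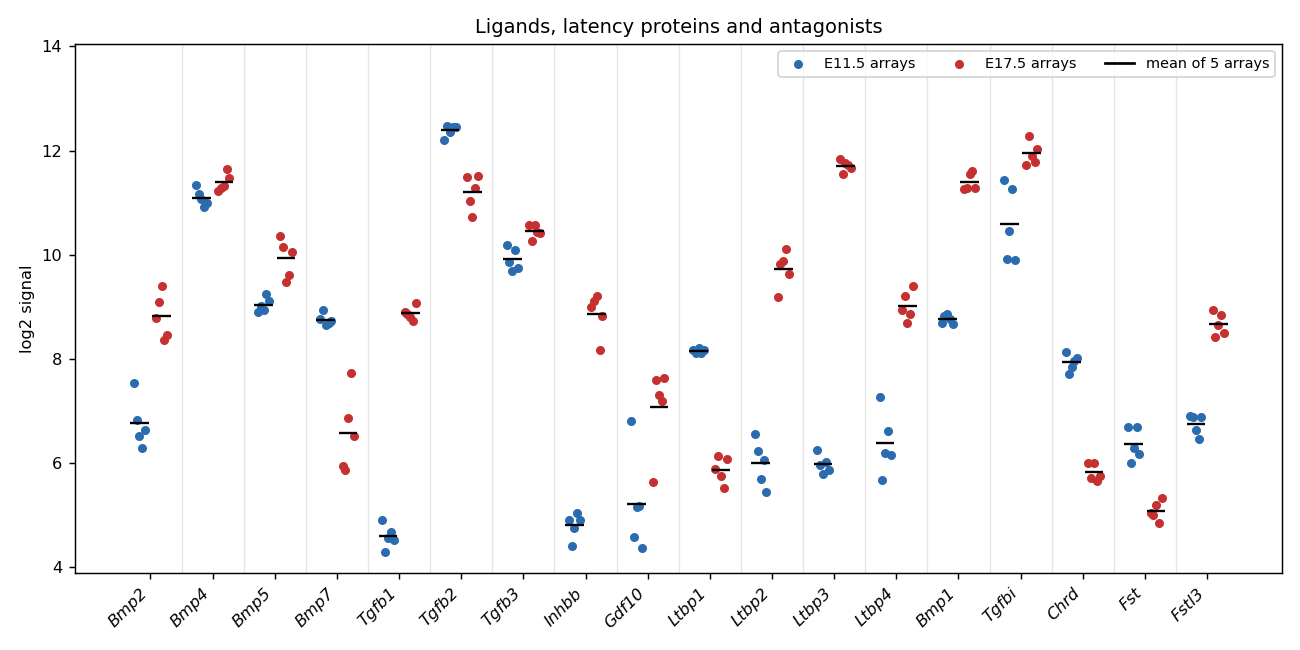
Log2 signal (y axis) of ligands, latency proteins, matrix genes and antagonists by array, with E11.5 in blue, E17.5 in red and black lines at the mean of each stage's 5 arrays. E17.5 lies above E11.5 for *Tgfb1*, *Inhbb* and *Ltbp3*, below them for *Bmp7*, *Tgfb2*, *Ltbp1* and *Chrd*, and among them for *Bmp4* and *Gdf10*. Heights are not compared between genes.

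All 7 type I receptors were called, 4 as higher and 3 as lower, and in no case did the arrays of the stages overlap. Over all genes, 68.4% were called and 58.6% did not overlap. *Tgfbr1*, the signalling receptor for TGF-β, had the largest fall of any member, with signals of 8.77, 9.59, 9.21, 9.32 and 9.77 on E11.5 replicates 1 to 5 and 4.77, 4.56, 4.68, 4.83 and 4.49 on E17.5 replicates 1 to 5. This is 25.4-fold lower (standard error 0.17 on the log2 scale, adjusted p = 1.3e-10). *Acvr1b*, the main type I receptor of activins, read 8.28, 8.63, 8.71, 8.44 and 8.57 and then 5.49, 5.07, 5.13, 4.95 and 5.24, 10.2-fold lower (adjusted p = 1.1e-10). *Bmpr1b*, a BMP receptor, read 6.58, 6.86, 6.58, 6.48 and 6.54 at E11.5 and 4.32, 4.45, 3.76, 4.27 and 4.05 at E17.5, 5.42-fold lower (adjusted p = 5.9e-09). The other BMP type I receptors went the other way. *Bmpr1a* was at 9.62 to 9.78 and then at 10.64 to 11.18, which is 2.14-fold higher (log2 difference 1.09, adjusted p = 1.7e-06), and its log2 difference was 0.49 after quantile normalization (adjusted p = 0.001). *Acvr1* rose 2.9-fold (adjusted p = 4.5e-06), from signals of 7.36, 7.26, 7.48, 7.5 and 7.55 to 9.42, 9.17, 8.75, 8.40 and 9.08. *Acvr1c*, a receptor for nodal and activins, was at 4.72 to 5.13 and then at 5.63 to 6.24, which is 2.04-fold higher (adjusted p = 1.3e-05).

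*Acvrl1*, the BMP type I receptor of endothelial cells, rose 23.7-fold (log2 difference 4.56, standard error 0.36, adjusted p = 1.8e-07). Its signals were 5.22, 5.14, 5.00, 5.16 and 5.31 at E11.5 and 9.09, 10.41, 9.93, 8.5 and 10.74 at E17.5, the widest spread of any type I receptor at that stage. The co-receptor gene *Eng* (endoglin), also known from endothelium, rose 7.01-fold (adjusted p = 2.9e-06), to 8.29, 9.35, 8.85, 8.25 and 9.91 on E17.5 replicates 1 to 5. The endothelial list, which holds neither gene, was at 8.73, 9.93, 9.19, 8.40 and 10.16 on those arrays. Replicate 5 was highest, followed by 2, 3, 1 and 4, for *Acvrl1*, *Eng* and the list alike, a reading made after the values were seen, and the part of endothelial RNA in the rise was not tested. Without E17.5 replicate 5 the *Acvrl1* difference was 4.31, and without E17.5 replicate 4 it was 4.87.

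Type II receptors split as well, and with betaglycan 2 of 5 were higher and 3 lower (1 and 3 after quantile normalization). *Acvr2a*, which binds activins and some BMPs, had signals of 9.18, 9.25, 9.20, 9.16 and 9.36 at E11.5 and 12.61, 12.77, 12.71, 12.47 and 12.55 at E17.5, a rise of 10.5-fold (log2 difference 3.39, standard error 0.08, adjusted p = 7e-12). Its paralogue *Acvr2b* read 8.82, 9.32, 9.15, 9.27 and 9.39 and then 7.55, 7.67, 7.85, 8.09 and 7.94, 2.58-fold lower (adjusted p = 1.5e-06), and its other probe set had a log2 difference of -1.95. *Tgfbr2*, the partner of *Tgfbr1*, read 6.73, 6.63, 6.55, 6.81 and 6.76 at E11.5 and 3.14, 3.31, 4.19, 3.43 and 3.58 at E17.5, 8.99-fold lower (standard error 0.17 on the log2 scale, adjusted p = 5e-09). So the genes of both kinases of the TGF-β receptor read lower at E17.5, each on 1 probe set. The *Tgfbr2* signals at E17.5 were near the lowest signal of all probe sets (2.47). *Tgfbr3* (betaglycan), a co-receptor that presents TGF-β2, read 7.89, 8.51, 8.27, 8.31 and 8.72 and then 6.91, 6.91, 6.41, 5.61 and 6.64, 3.59-fold lower (adjusted p = 2.1e-05). *Bmpr2* read 8.46, 8.52, 8.36, 8.53 and 8.47 at E11.5 and 8.85, 8.79, 8.74, 8.72 and 8.89 at E17.5. Its log2 difference was only 0.33 (adjusted p = 0.0018), and it was -0.13 after quantile normalization (adjusted p = 0.14) and 0.20 after median centring (adjusted p = 0.051). As deposited, the arrays of the stages did not overlap for any of these 5 genes, against 58.6% of all genes without overlap.

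**Figure D3:**
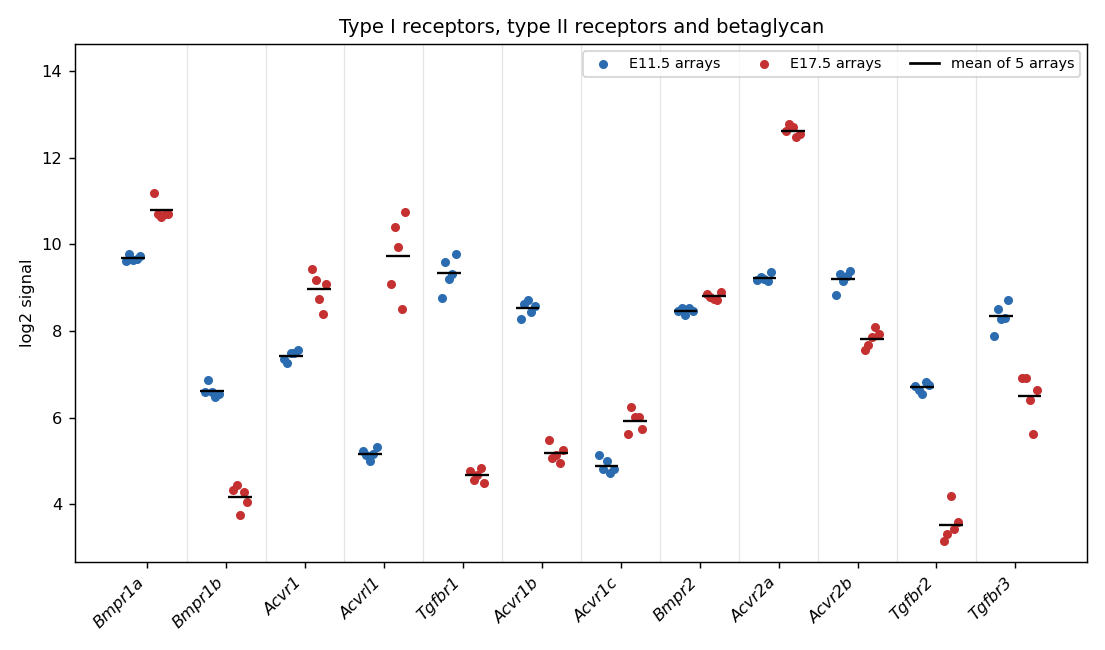
Log2 signal (y axis) of 7 type I receptors, 4 type II receptors and betaglycan (*Tgfbr3*) by array, with E11.5 in blue, E17.5 in red and black lines at the mean of each stage's 5 arrays. *Acvrl1* and *Acvr2a* are far higher at E17.5, while *Tgfbr1*, *Acvr1b* and *Tgfbr2* are far lower.

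Of the 6 receptor-activated and common Smads, 3 fell by more than 2-fold and none rose by that much. Calls were 2 higher and 3 lower, or 1 and 4 after quantile normalization. *Smad1*, which carries BMP signals, had signals of 10.57, 10.73, 10.70, 10.57 and 10.68 on E11.5 replicates 1 to 5 and 6.53, 6.99, 6.60, 6.06 and 6.86 on E17.5 replicates 1 to 5, a log2 difference of -4.04 with a standard error of 0.15 (adjusted p = 2e-10). *Smad3*, which carries TGF-β and activin signals, read 8.60, 8.79, 8.74, 8.67 and 8.91 and then 6.34, 5.66, 5.23, 5.74 and 6.08, 7.63-fold lower (adjusted p = 1.6e-08). *Smad4*, the common partner, read 11.64, 11.56, 11.62, 11.57 and 11.51 at E11.5 and 9.70, 9.80, 9.59, 9.80 and 9.64 at E17.5, 3.66-fold lower (standard error 0.08, adjusted p = 4.2e-10). For these 3 genes no array of E17.5 reached the lowest of E11.5. As deposited, no other Smad of either branch was called lower. *Smad5*, the other main BMP Smad, was at 10.46 to 11.46 and then at 9.97 to 11.43, which was not called (log2 difference -0.24, adjusted p = 0.46, but -0.82 with adjusted p = 0.015 after quantile normalization). *Smad9* read 5.51, 5.24, 5.66, 5.20 and 5.20 at E11.5 and 5.83, 5.51, 5.88, 6.65 and 6.34 at E17.5, a log2 difference of 0.68 with overlapping arrays (adjusted p = 0.0085). *Smad2* read 10.24, 10.26, 10.09, 10.05 and 10.10 and then 10.80, 10.61, 10.66, 10.62 and 10.67, a log2 difference of 0.52 (adjusted p = 8e-05) that was -0.08 and not called after quantile normalization (adjusted p = 0.37).

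Of the 4 intracellular inhibitors 3 were higher and 1 was not called (2 higher and 1 lower after quantile normalization). *Smurf1*, a ubiquitin ligase that marks Smads and receptors for breakdown, had signals of 8.70, 8.57, 8.65, 8.66 and 8.51 at E11.5 and 10.38, 10.33, 10.38, 10.20 and 10.21 at E17.5, a rise of 3.2-fold (log2 difference 1.68, adjusted p = 1.5e-09). *Smad7*, which blocks receptors of both branches, read 10.78, 11.12, 11.01, 10.99 and 10.94 and then 12.51, 12.10, 12.02, 11.83 and 12.24, a rise of 2.25-fold (log2 difference 1.17, adjusted p = 3.3e-06). Neither gene overlapped between the stages, but the *Smad7* log2 difference was as low as 0.64 when the processing was varied. *Smad6*, which acts mainly on BMP signals, read 8.39, 8.21, 7.94, 8.13 and 8.15 at E11.5 and 8.39, 8.45, 8.67, 8.79 and 8.65 at E17.5. Its log2 difference of 0.42 (adjusted p = 0.0042) came with 1 shared value at the edge of the ranges and was 0.01 after quantile normalization (adjusted p = 0.94). *Smurf2* read 10.21, 10.67, 10.70, 10.58 and 10.68 and then 11.10, 10.90, 10.54, 10.37 and 10.74, which was not called (log2 difference 0.16, adjusted p = 0.36) and was called lower after quantile normalization (-0.44, adjusted p = 0.019).

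**Figure D4:**
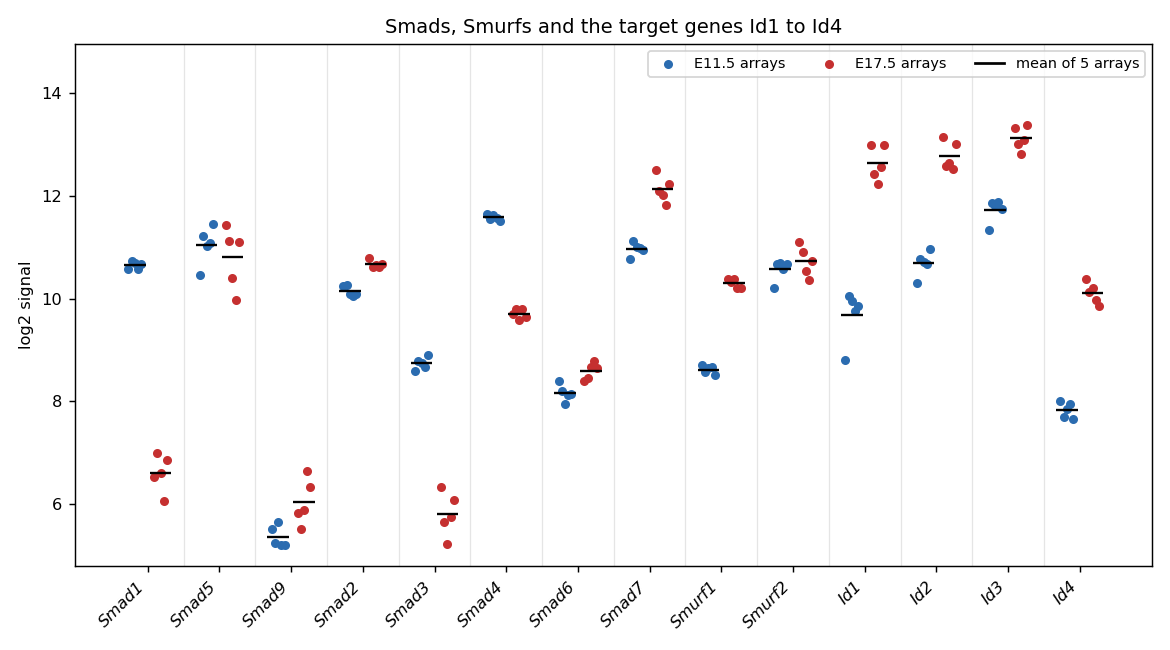
Log2 signal (y axis) of Smads, Smurfs and the target genes *Id1* to *Id4* by array, with E11.5 in blue, E17.5 in red and black lines at the mean of each stage's 5 arrays. *Smad1*, *Smad3* and *Smad4* are lower at E17.5 on every array, and *Smad7*, *Smurf1* and all 4 *Id* genes are higher.

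Secreted antagonists bind ligands and keep them from receptors. Of 5 measured, 3 were lower, 1 was higher and 1 was not called. *Chrd* (chordin), which binds BMPs, had signals of 8.14, 7.72, 7.85, 7.96 and 8.02 at E11.5 and 6.0, 5.72, 6.01, 5.65 and 5.76 at E17.5, 4.33-fold lower (standard error 0.11 on the log2 scale, adjusted p = 3.4e-09). *Fst* (follistatin), which binds activins, read 6.69, 6.0, 6.30, 6.70 and 6.18 and then 5.05, 5.01, 5.19, 4.86 and 5.34, 2.44-fold lower (adjusted p = 8e-06). *Fstl3*, a relative of follistatin that binds the same ligands, read 6.90, 6.89, 6.64, 6.46 and 6.88 at E11.5 and 8.95, 8.42, 8.66, 8.85 and 8.49 at E17.5, 3.78-fold higher (adjusted p = 4.7e-08). So *Fst* and *Fstl3* moved in opposite directions, each without overlap. *Nog* (noggin) read 4.92, 4.78, 4.53, 4.40 and 4.40 and then 4.00, 4.26, 4.46, 4.18 and 4.43, and fell by 0.34 (adjusted p = 0.035) with overlapping arrays. This call was lost without E11.5 replicate 1 (-0.26) or 2 (-0.30) and without E17.5 replicate 1 (-0.27), 2 (-0.34) or 4 (-0.32), and with array weights (-0.26, adjusted p = 0.082). *Grem1* (gremlin), another BMP antagonist, read 4.78, 4.02, 4.62, 4.10 and 4.18 at E11.5 and 4.50, 4.28, 4.32, 4.43 and 4.35 at E17.5 (log2 difference 0.04, adjusted p = 0.84).

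Of 3 further follistatin-like genes, 2 were higher. *Fstl1*, known to be needed for lung development, read 12.11, 12.23, 12.13, 12.34 and 12.26 at E11.5 and 13.20, 12.93, 12.65, 12.80 and 13.12 at E17.5, a log2 difference of 0.72 with no overlap (adjusted p = 9.5e-05). This difference was as low as 0.29 when the processing was varied. *Fstl4* read 3.59, 3.71, 4.05, 3.84 and 3.58 and then 4.52, 3.85, 4.55, 4.59 and 4.54, a log2 difference of 0.66 (adjusted p = 0.0021), with E17.5 replicate 2 among the E11.5 arrays. *Fstl5* read 3.13, 3.23, 3.09, 3.34 and 3.29 at E11.5 and 3.34, 3.33, 3.33, 3.48 and 3.58 at E17.5 and was not called (log2 difference 0.20, adjusted p = 0.066), though it passed after quantile normalization (0.26, adjusted p = 0.025) and with trend and robust moderation (0.20, adjusted p = 0.049).

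The BMP target genes *Id1* to *Id4*, which encode inhibitors of basic helix-loop-helix factors and are no members by the rule, were all higher at E17.5. The list of 18 target genes that holds them was mixed, with 10 higher and 4 lower. Among the lower ones were *Msx2* (log2 difference -2.14, adjusted p = 2e-09) and *Dlx3* (-1.30, adjusted p = 1.3e-06). *Id1* had signals of 8.81, 10.06, 9.95, 9.76 and 9.85 on E11.5 replicates 1 to 5 and 13.00, 12.43, 12.23, 12.56 and 12.99 on E17.5 replicates 1 to 5, a rise of 7.76-fold (log2 difference 2.96, adjusted p = 2.3e-07). *Id4* read 8.0, 7.69, 7.86, 7.95 and 7.66 and then 10.38, 10.12, 10.21, 9.97 and 9.85, a rise of 4.83-fold (adjusted p = 3.3e-09). *Id3* read 11.34, 11.86, 11.80, 11.88 and 11.74 at E11.5 and 13.33, 13.02, 12.81, 13.08 and 13.38 at E17.5, a rise of 2.64-fold (adjusted p = 1.6e-06). *Id2* read 10.31, 10.78, 10.71, 10.68 and 10.97 and then 13.15, 12.58, 12.65, 12.53 and 13.02, a rise of 4.28-fold (adjusted p = 9e-08). Since *Id2* drives the Cre by which the E17.5 cells were labelled, its rise is no independent measurement. No *Id* gene overlapped between the stages, and all 4 were called higher after quantile normalization and after median centring. *Bambi*, a decoy receptor that BMP signals induce, had a log2 difference of 0.53 (adjusted p = 0.00055), which was -0.04 after quantile normalization (adjusted p = 0.73). The fall of *Smad1*, *Smad4* and *Bmpr1b* and the rise of the *Id* genes were measured on the same arrays, and how they relate was not tested.

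Promoter sequences are shown for 4 genes of these results, the target genes *Id2* and *Id4*, which rose together, and the type I receptors *Bmpr1a* and *Tgfbr1*, which moved apart. BMP Smads are known to bind GC-rich elements with the palindrome GGCGCC, and Smad3 and Smad4 the palindrome GTCTAGAC. In the RefSeq promoter table of GRCm38.p6, 44 of the 58 members have an entry, with 54 start sites. GGCGCC stands within the 250 bases before 11 of these 54 starts, in 10 members, and in 9.59% of all 32851 windows of that length. GTCTAGAC stands in 0 of the 54 and in 0.167% of all windows. Both motifs read the same on either strand and neither contains the other. The windows are given 5′ to 3′ on the gene's strand and end at the base before the start site, with GGCGCC in capitals. They are chr12:25096093-25096342 on the minus strand (*Id2*), chr13:48260866-48261115 on the plus strand (*Id4*), chr14:34502547-34502796 on the minus strand (*Bmpr1a*) and chr4:47352972-47353221 on the plus strand (the more upstream of the table's *Tgfbr1* starts).
Id2: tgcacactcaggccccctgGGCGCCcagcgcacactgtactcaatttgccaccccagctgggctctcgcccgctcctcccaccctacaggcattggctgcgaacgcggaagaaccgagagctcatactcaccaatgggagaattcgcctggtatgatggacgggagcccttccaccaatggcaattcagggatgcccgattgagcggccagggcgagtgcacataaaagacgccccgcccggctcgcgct
Id4: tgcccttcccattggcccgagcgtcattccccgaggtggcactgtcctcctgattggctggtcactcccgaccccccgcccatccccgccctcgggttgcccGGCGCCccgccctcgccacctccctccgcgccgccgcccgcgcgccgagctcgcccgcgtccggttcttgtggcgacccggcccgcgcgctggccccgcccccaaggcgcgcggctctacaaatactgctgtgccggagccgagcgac
Bmpr1a: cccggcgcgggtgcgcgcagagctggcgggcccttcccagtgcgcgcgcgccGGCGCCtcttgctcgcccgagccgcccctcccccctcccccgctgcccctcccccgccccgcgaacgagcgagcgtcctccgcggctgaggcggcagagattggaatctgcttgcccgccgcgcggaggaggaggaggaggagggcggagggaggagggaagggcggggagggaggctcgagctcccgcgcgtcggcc
Tgfbr1: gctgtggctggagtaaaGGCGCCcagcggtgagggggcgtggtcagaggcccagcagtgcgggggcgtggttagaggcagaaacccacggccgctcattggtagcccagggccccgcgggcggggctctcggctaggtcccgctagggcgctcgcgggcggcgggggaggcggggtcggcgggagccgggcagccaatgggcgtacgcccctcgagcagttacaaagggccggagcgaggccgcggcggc
The motif starts 231 bases before the start site in *Id2*, 148 in *Id4*, 198 in *Bmpr1a* and 233 in *Tgfbr1*. Only windows that hold GGCGCC were shown, so its presence in these genes is no result. A match is a run of letters and does not show binding.

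Other genes of the pathway were read from a list of 83, of which 74 were measured. Of these, 49 were called (66.2%, against 68.4% of all genes), 30 as higher (40.5%, against 36.9%) and 19 as lower (25.7%, against 31.5%), so the list was called about as often as all genes. Quantile normalization gave a split of 26 and 28 and median centring one of 29 and 23, and the median log2 difference was 0.09. Among 18 target genes, 10 were higher and 4 lower (9 and 6 after quantile normalization). *Ccn1*, a matrix protein gene that TGF-β and stretch induce, rose 24-fold (log2 difference 4.59, adjusted p = 6.4e-12). Of 20 immediate early genes 19 rose as well, and the part of cell isolation in the *Ccn1* rise was not tested. *Skil*, a feedback repressor of Smads, was 7.84-fold lower (adjusted p = 2e-07). *Tsc22d1* rose by 3.23 on 1 probe set and had a log2 difference of -0.88 on its other probe set, so its direction is uncertain.

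Among 8 measured genes that free or activate ligands, 4 were higher and 2 lower (3 and 3 after quantile normalization). The integrin subunit genes *Itgb6* and *Itgb8*, whose αv integrins release active TGF-β from its latent form, moved apart. *Itgb6*, known from epithelia, read 4.49, 5.03, 4.47, 4.94 and 4.83 at E11.5 and 8.65, 8.16, 7.96, 7.88 and 7.77 at E17.5, a rise of 10.1-fold (log2 difference 3.33, standard error 0.18, adjusted p = 4.3e-09). *Itgb8* read 8.06, 7.82, 7.70, 8.12 and 7.99 and then 3.01, 3.50, 3.78, 3.64 and 3.54, 21.7-fold lower (standard error 0.14 on the log2 scale, adjusted p = 5.4e-11). The *Itgb8* signals at E17.5 were near the lowest signal of all probe sets (2.47). *Nrros*, which tethers latent TGF-β on macrophages and their relatives, rose 4.9-fold (adjusted p = 3e-06), beside the rise of the macrophage and monocyte list.

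Of 18 intracellular regulators, 10 were higher and 3 lower, and after quantile normalization 9 and 8. *Nedd4l*, a ubiquitin ligase that targets activated Smad2 and Smad3, rose 52.1-fold (log2 difference 5.70, standard error 0.10, adjusted p = 6.3e-13). *Ppm1a*, a phosphatase that can act on Smads, rose 24.6-fold (adjusted p = 1.7e-12), and *Tob1*, which binds BMP Smads and restrains them, rose by 4.32 on the log2 scale (adjusted p = 4.2e-11). Of 18 further secreted antagonists and modulators, 3 were higher and 7 lower. *Cer1* (cerberus), which binds nodal and BMPs, was 9.79-fold lower (adjusted p = 7.6e-08), *Chrdl1*, a chordin relative, 4.42-fold lower (adjusted p = 1.3e-07), and the protease gene *Htra1* 5.63-fold higher (adjusted p = 1.1e-09). Of 7 further receptors and co-receptors, 3 were higher and 3 lower, among them *Amhr2*, the receptor of anti-Müllerian hormone (3.1-fold higher, adjusted p = 9.3e-06), and *Cfc1*, a nodal co-receptor (2.21-fold lower, adjusted p = 0.00023). None of the 5 further ligands was called. *Nodal* had a log2 difference of -0.34 (adjusted p = 0.062), *Amh* of -0.16 and *Inha* of 0.08.

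**Figure D5:**
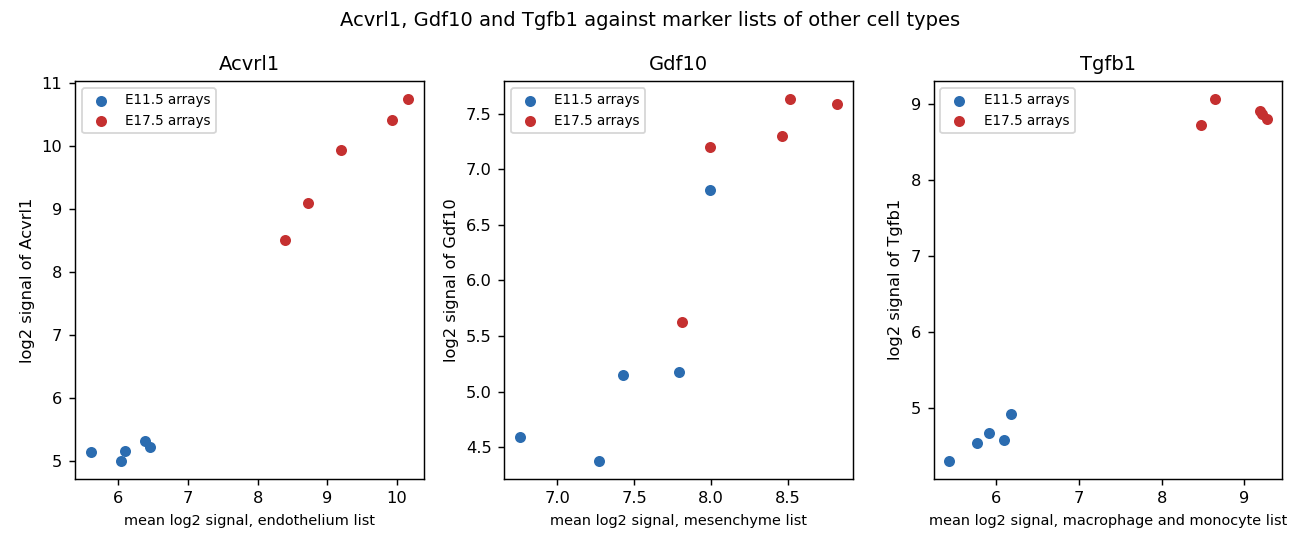
Log2 signal of *Acvrl1*, *Gdf10* and *Tgfb1* (y axes) against the mean log2 signal of the endothelial, mesenchymal, and macrophage and monocyte marker lists (x axes) on each array of E11.5 (blue) and E17.5 (red). *Acvrl1* and the endothelial list share their order of the E17.5 arrays, *Gdf10* overlaps between stages where the mesenchymal list does, and *Tgfb1* lies between 8.73 and 9.07 on the E17.5 arrays.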

How the data were processed

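RNA of 5 E11.5 and 5 E17.5 samples was amplified with NuGEN kits and read on Affymetrix mouse arrays, which the authors processed with Bioconductor. Values were deposited as log2 signals for 21204 probe sets. How they were corrected, summarised, normalized and chosen is not given in sources used here, and the log2 scale was inferred from their range of 2.47 to 15.03. Upper quartiles differed more between the stages (9.42 to 9.46 against 10.00 to 10.04) than medians (7.01 to 7.14 against 7.14 to 7.23). With 5 arrays per stage, the number of arrays sets the precision.

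The platform annotation gave 1 gene for 17981 probe sets. Another 514 with several genes and 2709 with none were dropped. Genes with more than 1 probe set were represented by that of the highest mean over all arrays. All 58 members matched a RefSeq gene of GRCm38.p6, with 0 symbols changed.

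E17.5 was compared with E11.5 by limma 3.58.1 in R 4.3.3 (lmFit and eBayes, no covariate), with Benjamini-Hochberg adjustment over all 17813 genes and a threshold of 0.05. The procedure was tested on simulated data. A fold is the antilog of the difference between mean log2 signals. Python 3.11.15 and matplotlib 3.10.9 drew the figures.

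Members and lists were chosen with earlier results of these data known. Every member may be named. For each role, the 5 members with the largest differences are given on every array. Of the other pathway genes, *Id1* to *Id4*, *Bambi*, *Eng* and the 3 largest differences of each list are named, with *Msx2* and *Dlx3* as lower target genes. *Bmp3*, *Gdf1*, *Gdf6*, *Gdf7* and *Gdf15* were not analysed here. Results were recomputed after quantile normalization or median centring, with other probe set choices, without dim genes, with a replicate block, with array weights, with trend and robust moderation, and without each array.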

Additional observations from a re-analysis of the deposited data

Results flagged for a closer look

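In 7 of 116 groups of 5 arrays (58 members at 2 stages), the highest or lowest array lay so far out that its distance to the next one exceeded 0.71 of the spread. About 5.8 such groups arise by chance, or 1 in 20. On E17.5 replicate 1, *Bmp15* was at 5.73 (nearest other array 5.21), *Bmpr1a* at 11.18 (nearest 10.71) and *Gdf10* at 5.63 (nearest 7.20). On E17.5 replicate 2, *Fstl4* was at 3.85 (nearest 4.52). On E11.5 arrays, *Smurf2* was at 10.21 on replicate 1 (nearest 10.58), *Bmpr1b* at 6.86 on replicate 2 (nearest 6.58) and *Bmp8b* at 6.33 on replicate 3 (nearest 6.58). Without the array that stood apart, the calls of *Bmp15*, *Bmpr1a*, *Gdf10*, *Fstl4*, *Bmpr1b* and *Bmp8b* were kept, and *Smurf2* was again not called.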

How the results depend on the processing

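Of the 47 members called, 39 were called in the same direction under every one of the 19 alternatives that measured them, and this held for all 31 members with a call and a change of at least 2-fold. The exceptions were *Bmp4*, *Bmp5*, *Bmpr2*, *Gdf11*, *Nog*, *Smad2*, *Smad6* and *Tgfb3*. Alternatives that chose other probe sets or dropped genes could hardly change a call. They left the difference of every member they kept as it was, except for *Acvr2b* with its pair of probe sets. Calls of *Bmpr1a*, *Smad7*, *Tgfbi* and *Acvr1c* were kept, but their lowest log2 differences of 0.49, 0.64, 0.80 and 0.90 were under 2-fold. Quantile normalization turned *Bmp4* to -0.28, *Bmpr2* to -0.13, *Smad2* to -0.08, *Smurf2* to -0.44 and *Tgfb3* to -0.06. Median centring moved the median difference of all genes from 0.03 to -0.10. Without dim genes (mean under 7.18, the median of all probe sets), 29 members were left, with 20 higher and 7 lower. Of these, 13 were at least 2-fold higher and 7 at least 2-fold lower. Of 46 other pathway genes left, 27 were higher and 7 lower, and the median difference of all genes left was 0.23. Leaving out each array in turn gave 30 to 32 higher and 15 to 16 lower members, 16 to 18 and 14 to 14 of them by at least 2-fold, and 29 to 31 higher and 17 to 19 lower other pathway genes.

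Replicate numbers did not pair the arrays, as deviations of same-numbered arrays from their stage means correlated at -0.29, -0.18, -0.01, -0.10 and 0.07 for numbers 1 to 5. With the replicate number as a block, 30 members were higher and 14 lower, and *Bmp4* (adjusted p = 0.096), *Gdf11* (adjusted p = 0.055) and *Nog* (adjusted p = 0.085) lost their calls.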
